A study of Mus musculus with 32 samples.

Results

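The annexin genes Anxa1, Anxa2, Anxa3, Anxa4, Anxa5, Anxa6, Anxa7, Anxa8 and Anxa11 were followed across 8 groups of mouse brain tumour cultures that differed in the oncogenes they had been given. The genes were chosen by name, as annexin genes, but with earlier results of these data known. All 9 of the 9 were found among the 19938 genes measured. Each was set in 1 of 3 classes by how it passed in 3 comparisons of the HRAS, MYC and HRAS+MYC groups. The array also measured Anxa9, Anxa10 and Anxa13, which were not on the list and are described only as a group.

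The 32 samples were neurosphere cultures, free-floating spheres of stem-like cells, grown from tumours that formed after cells were transplanted into the brain. The transplanted cells were themselves neurosphere cells of strain B6;129-Trp53tm1Brd and lacked p53, so every group carries that deficiency and no untransformed group served as a control. Cells expressing the transgene were sorted out of each tumour by flow cytometry before culture, and total RNA was hybridised to 1 Affymetrix Mouse Gene 1.0 ST array per sample. The labels do not say whether replicates of a group came from separate animals, separate tumours or separate transductions, so p-values measure the spread between these samples, which may be technical in part.

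Gliomas came from cells given HRAS (n = 5), a small GTPase that activates the MAP kinase pathway, or HRAS+Bmi1 (n = 2), where Bmi1 is a Polycomb repressor subunit. Primitive neuroectodermal tumours (PNET) came from cells given MYC (n = 6), a transcription factor that drives growth, or MYC+Ezh2 (n = 5) or MYC+Bmi1 (n = 3), where Ezh2 is the Polycomb methyltransferase. The HRAS+MYC group (n = 7), in which both oncogenes were given at once, formed tumours labelled AT/RT-like, for atypical teratoid/rhabdoid tumour. In the consecutive groups an oncogene was added to cells already taken from a tumour, and a secondary tumour was then raised. HRAS was added to PNET-derived cells in the group called here MYC then HRAS (n = 2), and MYC was added to glioma-derived cells in the group called HRAS then MYC (n = 2). The labels of the consecutive groups do not say from which primary tumour the cells came.

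Annexins are cytosolic proteins that bind acidic phospholipids when calcium rises, through a conserved core of repeated helices. They differ in their amino-terminal tails, which hold the binding sites for S100 proteins and other partners. Members of the family take part in membrane repair, in traffic of vesicles, in anchoring actin to membranes and, outside the cell, in the control of inflammation and of plasmin. Some, such as Anxa1 and Anxa2, are also known from reactive glia and from gliomas.

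Values are log2 expression values after robust multi-array averaging (RMA), so that 1 unit is a doubling, and each is given for 1 array. Probe sets of 1015 olfactory receptor genes, which brain tumour cells are not known to need, had a 95th percentile of 5.09, and values near or under that level are called dim here, since RMA draws weak probe sets towards a common floor and understates their changes. Levels were compared between groups for the same gene and not between genes. Differences were tested with limma in 1 model of all 8 groups, with Benjamini-Hochberg adjustment over all 19938 genes of a comparison, and a gene passed at an adjusted p under 0.05. Differences are given ± the standard error (SE) of the fit, and group means ± SD.

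The upstream sequences of 3 members are shown as examples, and they do not stand for the 3 classes. Anxa1 and Anxa2 fell in the same class, and Anxa3, the graded member, was not in the promoter table. Anxa1 was high in all groups with HRAS, and Anxa8 only in the HRAS+MYC and MYC then HRAS groups. Anxa2 was high with HRAS, and its arrays in the HRAS+Bmi1 and HRAS then MYC groups lay lower, though neither difference from HRAS passed. Each line gives the 250 bases before the transcription start, 5′ to 3′ on the gene's strand, from the RefSeq promoter table of build GRCm38.p6. The windows are chr19:20390672-20390921 on the minus strand for Anxa1, chr9:69453433-69453682 on the plus strand for Anxa2 and chr14:34085729-34085978 on the plus strand for Anxa8. Capitals mark matches to the motifs searched.
Anxa1: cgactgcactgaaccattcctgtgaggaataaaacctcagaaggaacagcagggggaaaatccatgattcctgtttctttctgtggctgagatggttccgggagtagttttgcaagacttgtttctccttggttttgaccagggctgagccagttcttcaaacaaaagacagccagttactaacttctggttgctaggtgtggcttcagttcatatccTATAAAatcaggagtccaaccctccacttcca
Anxa2: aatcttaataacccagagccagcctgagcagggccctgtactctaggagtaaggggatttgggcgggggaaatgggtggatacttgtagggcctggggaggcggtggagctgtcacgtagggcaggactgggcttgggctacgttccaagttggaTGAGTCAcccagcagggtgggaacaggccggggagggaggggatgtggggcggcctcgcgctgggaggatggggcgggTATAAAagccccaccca
Anxa8: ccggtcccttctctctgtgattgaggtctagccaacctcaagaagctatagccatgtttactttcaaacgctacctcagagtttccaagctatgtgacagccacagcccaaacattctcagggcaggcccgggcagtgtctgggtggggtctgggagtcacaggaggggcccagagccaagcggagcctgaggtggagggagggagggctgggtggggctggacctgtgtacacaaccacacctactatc

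The table held 7 of the 9 genes in 9 windows, and Anxa3 and Anxa6 were not matched. Searched on both strands were TGANTCA, the site of AP-1 factors that act downstream of the MAP kinase pathway, CACGTG, the E-box bound by MYC with MAX, and TATAAA, the core of a TATA box. In Anxa1 the capitals mark TATAAA 32 to 27 bases before the start. In Anxa2 they mark TGAGTCA 95 to 89 bases and TATAAA 17 to 12 bases before the start. None of the searched motifs was found in the Anxa8 window. Among the other matched members only Anxa7 held a match, CACGTG at 113 to 108 bases before the start in the second of its windows. Of 32851 promoters of the same length, 6.75% held TGANTCA, 6.02% held CACGTG and 12.4% held TATAAA, so 1, 1 and 2 of 7 annexin genes with a match is a description of these windows and no more.

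In HRAS gliomas 7 of the 9 members were higher than in MYC tumours, and for Anxa6 and Anxa8 no difference passed. The 7 were Anxa1, Anxa2, Anxa3, Anxa4, Anxa5, Anxa7 and Anxa11, and their differences ran from 2.79 for Anxa11 to 7.24 for Anxa1. None was lower. Over all genes 15.4% were higher and 18% lower in this comparison. The arrays of the HRAS and MYC groups did not overlap for 8 members, the 7 and Anxa8, and for 15.8% of all genes. The median difference of the 9 annexins was 3.38, against -0.03 over all genes. For Anxa9, Anxa10 and Anxa13, which were left off the list, it was 0.01, and none of these 3 passed.

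With the data of all groups side by side, the same 7 members separated every array with HRAS from every array without it. Each had its lowest value among the 18 arrays of the 5 groups that carry HRAS above its highest value among the 14 arrays of the 3 groups that do not. Over all genes 1.74% were higher with HRAS in this sense. The gap between the nearest arrays was 4.10 for Anxa1, 2.62 for Anxa5, 2.57 for Anxa2 and 1.45 for Anxa3. It was narrow for Anxa7 at 0.48, Anxa4 at 0.25 and Anxa11 at 0.20.

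**Figure D1:**
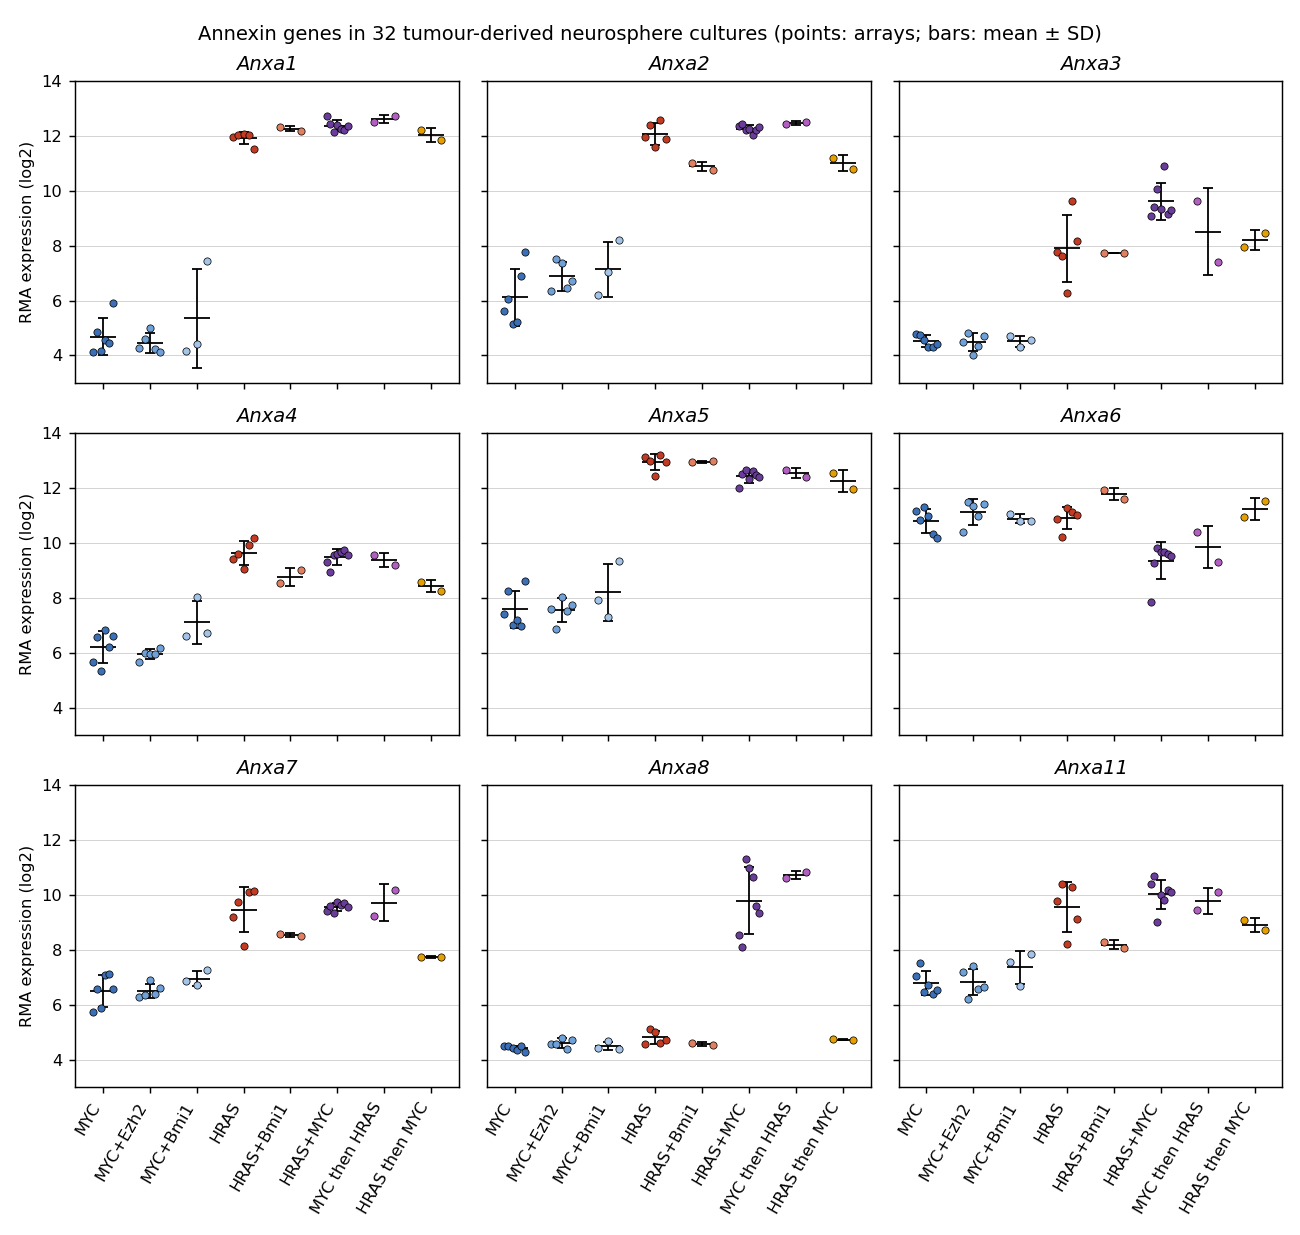
RMA expression (log2) of the 9 annexin genes, 1 panel per gene; each point is 1 array, and bars are the mean ± SD of each of the 8 groups. In 7 panels every array of the 5 groups with HRAS lies above every array of the 3 groups without it, while Anxa8 is high only in the HRAS+MYC and MYC then HRAS groups and Anxa6 is lowest in HRAS+MYC.

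Anxa1 encodes the annexin that glucocorticoids induce and that dampens inflammation through formyl peptide receptors. Its values in the MYC group were 4.14, 4.87, 4.17, 4.57, 4.47 and 5.92, most of them dim. In the HRAS group they were 11.97, 12.05, 12.06, 12.02 and 11.53, far above every MYC array. The difference of 7.24 ± 0.367, understated since the MYC arrays are dim, passed with an adjusted p of 1.4e-14. The 7 HRAS+MYC arrays ran from 12.14 to 12.74, with a mean of 12.36 ± 0.20 (SD, n = 7), and none overlapped the HRAS arrays. That step of 0.44 nevertheless did not pass the limma test, with a 95% interval from -0.29 to 1.17 and an adjusted p of 0.41. In a limma fit of those groups alone it passed, with an adjusted p of 0.020. One MYC+Bmi1 array, replicate 3 at 7.44, stood above the 13 other arrays without HRAS, and the other MYC+Bmi1 arrays were at 4.18 and 4.43.

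Anxa2 encodes the annexin that pairs with S100a10 at the inner face of the plasma membrane. Its MYC values were 5.60, 6.05, 5.16, 5.20, 6.91 and 7.76, spread over more than 2.5 units. Its HRAS values were 11.95, 12.39, 11.58, 12.58 and 11.88. The difference was 5.96 ± 0.359 (adjusted p = 5.6e-13), or 62.3-fold. The HRAS+MYC arrays ran from 12.05 to 12.44 around a mean of 12.27 ± 0.13 (SD, n = 7), inside the range of the HRAS arrays, and the difference of 0.19 had a 95% interval from -0.52 to 0.90. HRAS+Bmi1 cells stood lower, at 11.02 and 10.77, as did HRAS then MYC cells at 11.21 and 10.81. All 4 of these arrays lay under every HRAS, HRAS+MYC and MYC then HRAS array. Against HRAS, however, the differences of -1.18 for HRAS+Bmi1 and -1.07 for HRAS then MYC did not pass in limma (adjusted p = 0.18 for each).

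Anxa5 encodes the annexin used as a probe for phosphatidylserine on dying cells. Its MYC arrays ran from 6.96 to 8.60 (mean 7.58 ± 0.69, SD, n = 6) and its HRAS arrays from 12.44 to 13.19 (mean 12.94 ± 0.30, SD, n = 5). The difference was 5.37 ± 0.292 (adjusted p = 6.7e-14), or 41.3-fold. In HRAS+MYC cells the mean was 12.42 ± 0.22 (SD, n = 7), which differed from HRAS by -0.52 with a 95% interval from -1.10 to 0.06 and an adjusted p of 0.19 (0.018 in a limma fit of those groups alone). HRAS+Bmi1 cells were at 12.94 and 12.98, within the HRAS range.

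Anxa4, Anxa7 and Anxa11 rose as well. Anxa4, an annexin of epithelial membranes, averaged 6.20 ± 0.59 (SD, n = 6) in MYC and 9.64 ± 0.45 (SD, n = 5) in HRAS cells, a difference of 3.44 ± 0.253 (adjusted p = 2.5e-11). Anxa7, also called synexin and a partner of sorcin, averaged 6.50 ± 0.59 (SD, n = 6) and 9.47 ± 0.83 (SD, n = 5), a difference of 2.97 ± 0.275 (adjusted p = 2.0e-09). Anxa11, which binds S100a6 and tethers RNA granules to lysosomes, averaged 6.78 ± 0.44 (SD, n = 6) and 9.57 ± 0.91 (SD, n = 5), a difference of 2.79 ± 0.332 (adjusted p = 1.6e-07). In HRAS+MYC cells the means of the same genes were 9.49, 9.57 and 10.03, and none passed against HRAS, with 95% intervals from -0.65 to 0.35, from -0.45 to 0.64 and from -0.20 to 1.12. These intervals bound any difference from HRAS to about 1 unit without showing that there is none.

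The spread among HRAS arrays was uneven between members. For Anxa7 the HRAS values were 9.20, 9.76, 8.16, 10.10 and 10.15, and for Anxa11 they were 9.79, 10.42, 8.22, 10.30 and 9.11. Replicate 3 was the lowest in both. It was the lowest HRAS array in 6 of the 7 members that rose with HRAS, with a median deviation from the group median of -0.56. Among the arrays without HRAS, MYC+Bmi1 replicate 3 was the highest of its group in 5 of these 7 members. The counts of 7, 9 and 3 members that passed in the 3 comparisons of HRAS, MYC and HRAS+MYC were the same with any 1 array of those groups left out.

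Anxa3 was graded: high with HRAS and higher with HRAS+MYC. Little is fixed about its role beyond calcium-dependent binding to phospholipid. Its MYC values lay between 4.30 and 4.76, all dim. Its HRAS values were 7.78, 7.62, 6.28, 9.64 and 8.18, with replicate 4 above and replicate 3 below the rest. Its HRAS+MYC values were 9.06, 9.42, 10.08, 9.33, 10.90, 9.16 and 9.31, which overlapped the HRAS arrays only through HRAS replicate 4. The difference from MYC was 3.38 ± 0.402 (adjusted p = 1.6e-07) in HRAS and 5.09 ± 0.370 (adjusted p = 1.6e-11) in HRAS+MYC cells. The step from HRAS to HRAS+MYC was 1.71 ± 0.389 (adjusted p = 0.0016), or 3.27-fold, and ran from 1.30 to 2.14 when single arrays of the compared groups were left out.

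Anxa8 and Anxa6 were special to the HRAS+MYC group by the class rule, in opposite directions. HRAS then MYC cells, which also carry both oncogenes, showed neither change, as given below. Anxa8 encodes an annexin best known from stratified epithelia and their tumours. It was dim in the MYC group, from 4.29 to 4.51, and near that level in the HRAS group, at 4.59, 5.13, 5.00, 4.62 and 4.71. In HRAS+MYC cells its 7 values had a lowest of 8.10, a median of 9.60 and a highest of 11.32. Every HRAS+MYC array was thus above every HRAS and MYC array, and the combination group itself spread over more than 3 units. The difference was 4.99 ± 0.351 (adjusted p = 5.2e-11) from HRAS and 5.37 ± 0.333 (adjusted p = 6.6e-13) from MYC, and both are understated where the lower group is dim. HRAS alone exceeded MYC by 0.38 with a 95% interval from -0.36 to 1.13 (adjusted p = 0.48), although the arrays of those groups did not overlap. Fitted on the HRAS and MYC groups alone, with their own narrow spread, that step passed with an adjusted p of 0.030, so the class of Anxa8 became graded there.

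Anxa6 encodes an annexin with an extended core that has been tied to cholesterol traffic and to restraint of RAS signalling through recruitment of a GTPase-activating protein. On the probe set used, it was well above the dim level in every array. Its MYC values were 11.15, 10.84, 11.31, 10.99, 10.34 and 10.18, and its HRAS values were 10.88, 10.22, 11.26, 11.14 and 11.01. HRAS and MYC cells differed by 0.10, with a 95% interval from -0.50 to 0.70. In HRAS+MYC cells it was at 7.86, 9.26, 9.82, 9.68, 9.66, 9.59 and 9.53, under every HRAS and MYC array. It fell by 1.46 ± 0.268 (adjusted p = 8.5e-05) from MYC and fell by 1.56 ± 0.282 (adjusted p = 0.00015) from HRAS. The lowest of these values, replicate 1, stands apart, and without it the difference from HRAS was -1.31 and from MYC -1.21, both still passing. A second Anxa6 probe set, not used because its mean was lower, lay between 5.06 and 6.29, with its lowest values dim. It showed another order, with HRAS at 5.49 and HRAS+MYC at 5.50 both below MYC at 5.96. Its HRAS arrays, 5.06 to 5.67, lay under its MYC arrays, 5.80 to 6.11, so its order is not that of the class given here.

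In the comparison of HRAS+MYC with HRAS, 2 members were therefore higher and 1 lower, against 11.7% higher and 13% lower over all genes. Against MYC, 8 were higher and 1 lower, against 15.8% and 18.4%. The arrays of HRAS+MYC and HRAS were fully apart for 3 members, Anxa1, Anxa6 and Anxa8, and for 12.3% of all genes, and those of HRAS+MYC and MYC for all 9 members and for 15.4% of all genes. These comparisons and HRAS against MYC share arrays in pairs, so their counts are not independent of each other. By the rule of classes Anxa1, Anxa2, Anxa4, Anxa5, Anxa7 and Anxa11 followed HRAS, Anxa3 was graded, and Anxa6 and Anxa8 were special to HRAS+MYC. None of Anxa9, Anxa10 and Anxa13 passed in any of the 3 comparisons.

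**Figure D2:**
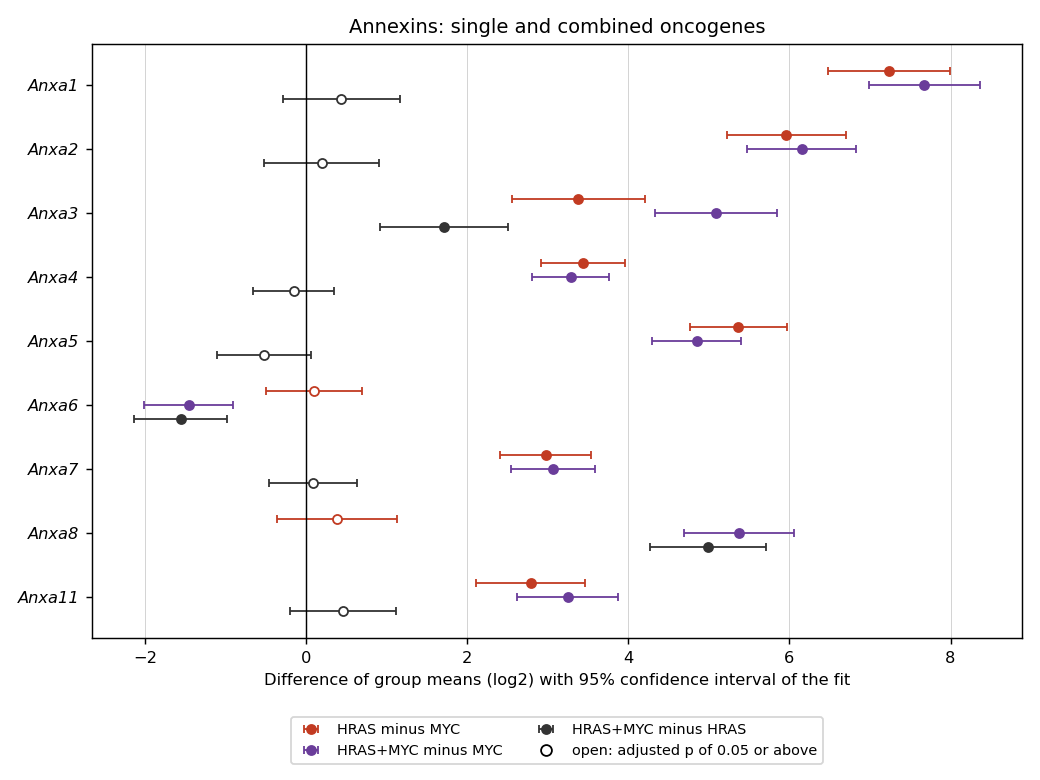
Differences of group means (log2) with 95% confidence intervals of the limma fit for the 9 annexins, in HRAS minus MYC, HRAS+MYC minus MYC and HRAS+MYC minus HRAS; open points did not pass at an adjusted p under 0.05. In the last comparison only Anxa3 at 1.71, Anxa6 at -1.56 and Anxa8 at 4.99 are filled.

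The groups with added Bmi1 gave HRAS against MYC in arrays that the first comparison did not use. Of the 9 members 6 were higher in HRAS+Bmi1 than in MYC+Bmi1 and none was lower, while 7.92% of all genes were higher and 5.83% lower. Anxa1 differed by 6.91 ± 0.554 (adjusted p = 1.1e-09), Anxa5 by 4.76 ± 0.441 (adjusted p = 1.1e-08), Anxa2 by 3.75 ± 0.541 (adjusted p = 1.7e-05) and Anxa3 by 3.22 ± 0.607 (adjusted p = 0.00043). The smaller steps were 1.66 ± 0.381 for Anxa4 (adjusted p = 0.0032) and 1.60 ± 0.415 for Anxa7 (adjusted p = 0.0090). Anxa7 no longer passed when either HRAS+Bmi1 array was left out (adjusted p = 0.092 and 0.065), nor did Anxa4 without replicate 2 (adjusted p = 0.079). In a limma fit of those groups alone Anxa4 did not pass (adjusted p = 0.082) and Anxa6 did, higher by 0.90 (adjusted p = 0.030). Anxa11 was at 8.30 and 8.07 in HRAS+Bmi1 and at 7.55, 6.69 and 7.87 in MYC+Bmi1, a difference of 0.81 with a 95% interval from -0.21 to 1.84. Anxa8 stayed dim on both sides, with a difference of 0.08.

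Whether the step from MYC to HRAS was of another size with Bmi1 was tested as an interaction. It passed for Anxa4 alone, where the step was smaller by 1.78 ± 0.457 with Bmi1 (adjusted p = 0.034), while 2.43% of all genes passed. For Anxa2 the estimate was -2.21 (adjusted p = 0.067) and for Anxa11 -1.97 (adjusted p = 0.076). These results hang on single arrays. Without HRAS replicate 3, the low array, 4 members passed, namely Anxa2, Anxa4, Anxa7 and Anxa11, and without either HRAS+Bmi1 array none did. The Anxa4 call was also lost without HRAS replicate 4 or 5, MYC replicate 1 or MYC+Bmi1 replicate 2.

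No annexin passed in limma between HRAS+Bmi1 and HRAS, where 5.91% of all genes did, although 5 of 9 had an unadjusted p under 0.05, as did 18.2% of all genes. Among these 5 was Anxa11, with a difference of -1.39 (95% interval -2.33 to -0.45, adjusted p = 0.072). Without HRAS replicate 3 it passed at -1.72 (adjusted p = 0.0075), and so did Anxa7 at -1.26 (adjusted p = 0.011). The partner of HRAS was compared directly by setting HRAS+MYC against HRAS+Bmi1, where 4 members were higher and 1 lower, against 7.61% and 9.56% of all genes. Anxa8 was higher by 5.22 ± 0.481, Anxa3 by 1.87 ± 0.533, Anxa11 by 1.85 ± 0.439 and Anxa2 by 1.37 ± 0.475, with adjusted p-values of 1.2e-08, 0.014, 0.0035 and 0.045. Anxa7 differed by 1.02 ± 0.365 and missed the threshold (adjusted p = 0.054), but passed after median centring (0.024), with dim genes left out (0.043) and in a limma fit of those groups alone (adjusted p = 0.00019). Anxa6 was lower by a difference of -2.43 ± 0.386 (adjusted p = 5.2e-05), from 11.94 and 11.62 in HRAS+Bmi1, which exceeded every array of the other groups. Leaving out 1 HRAS+Bmi1 array cut the count of 5 to 3 or 2, and Anxa8 and Anxa6 passed in both cases. The Anxa2 call was lost when any of 8 of the 9 arrays was left out.

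Added Ezh2 or Bmi1 in MYC cells gave no annexin that passed in limma, where 0.246% and 0.15% of all genes did. At an unadjusted p under 0.05 there were 1 and 2 of 9 members, beside 10.8% and 11.6% of all genes. Anxa2 was higher by 0.76 with Ezh2 (95% interval 0.03 to 1.50), and with Bmi1 Anxa2 was higher by 1.03 (0.17 to 1.89) and Anxa4 by 0.91 (0.31 to 1.52), none of which passed after adjustment.

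The consecutive groups show each member under both orders of the oncogenes. When HRAS was added to MYC tumour cells, 8 members were higher than in MYC cells and none lower, against 9.83% and 10.6% of all genes. The differences were 7.92 ± 0.495 for Anxa1, 6.36 ± 0.484 for Anxa2, 6.30 ± 0.489 for Anxa8 and 4.96 ± 0.394 for Anxa5. Anxa3 was higher by 3.99 ± 0.543, Anxa7 by 3.23 ± 0.371, Anxa4 by 3.17 ± 0.341 and Anxa11 by 2.99 ± 0.447. The largest adjusted p among these 8 was 1.6e-05. Anxa8 stood at 10.62 and 10.82, inside the range of the HRAS+MYC arrays and above every MYC array.

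Anxa6 in MYC then HRAS cells was at 10.38, inside the MYC range, and 9.30, inside the HRAS+MYC range, with a difference from MYC of -0.96 (95% interval -1.77 to -0.15, adjusted p = 0.087). It passed without replicate 1 (adjusted p = 0.0498). Anxa3 was also split there, at 9.64 and 7.39. Against HRAS+MYC itself no annexin passed in limma, and 0.11% of all genes did. At an unadjusted p under 0.05 there was 1 of 9, beside 7.37% of all genes. The widest of these differences were -1.10 for Anxa3 and 0.93 for Anxa8, with 95% intervals of -2.19 to 0.00 and -0.06 to 1.91, so differences of about 2 units could not be told from none with 2 arrays.

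When MYC was added to HRAS glioma cells, Anxa8 stayed dim, at 4.75 and 4.72, and Anxa6 stayed high, at 10.95 and 11.53. Against HRAS these differed by -0.08 (95% interval -1.11 to 0.95) and 0.34 (-0.49 to 1.17). Against HRAS+MYC they differed by -5.06 ± 0.481 (adjusted p = 3.4e-08) and 1.89 ± 0.386 (adjusted p = 0.0013). The Anxa6 call was lost without replicate 2 of HRAS then MYC (adjusted p = 0.099), at a difference of 1.60. Anxa3, at 7.96 and 8.48, was under every HRAS+MYC array, though its difference of -1.39 did not pass (adjusted p = 0.093).

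Among the members that followed HRAS, Anxa7 was at 7.73 and 7.76 in HRAS then MYC cells, under every array of the other HRAS groups. It differed by -1.73 ± 0.380 from HRAS (adjusted p = 0.0029) and by -1.82 ± 0.365 from HRAS+MYC (adjusted p = 0.0011). Anxa4, at 8.59 and 8.26, differed by -1.21 ± 0.349 (adjusted p = 0.020) and -1.06 ± 0.335 (adjusted p = 0.036). Its call against HRAS was lost without either HRAS then MYC array, and its call against HRAS+MYC without either of those or HRAS+MYC replicate 4, 5 or 6. In a limma fit of the HRAS and HRAS then MYC groups alone, neither Anxa7 nor Anxa4 passed (adjusted p = 0.090 and 0.057). Anxa1, at 12.22 and 11.86, and Anxa5, at 12.55 and 11.98, did not pass in either comparison. In all, 2 members were lower than in HRAS and none higher, against 6.21% and 6.3% of all genes, and 3 were lower and 1 higher than in HRAS+MYC, against 5.17% and 6.89%. The count of 2 fell to 1 without replicate 1 of HRAS then MYC and to 0 without replicate 2, where Anxa7 had an adjusted p of 0.062.

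The opposite orders were also set against each other. MYC then HRAS exceeded HRAS then MYC by 5.99 ± 0.599 for Anxa8 (adjusted p = 2.8e-07) and by 1.98 ± 0.455 for Anxa7 (adjusted p = 0.011). These were the 2 members that passed, and none was lower, against 1.7% of all genes higher and 1.58% lower. The Anxa7 call was lost when replicate 2 of MYC then HRAS or either HRAS then MYC array was left out, while the Anxa8 call was kept each time. Anxa6 differed by -1.40 (95% interval -2.39 to -0.41), which did not pass (adjusted p = 0.12).

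**Figure D3:**
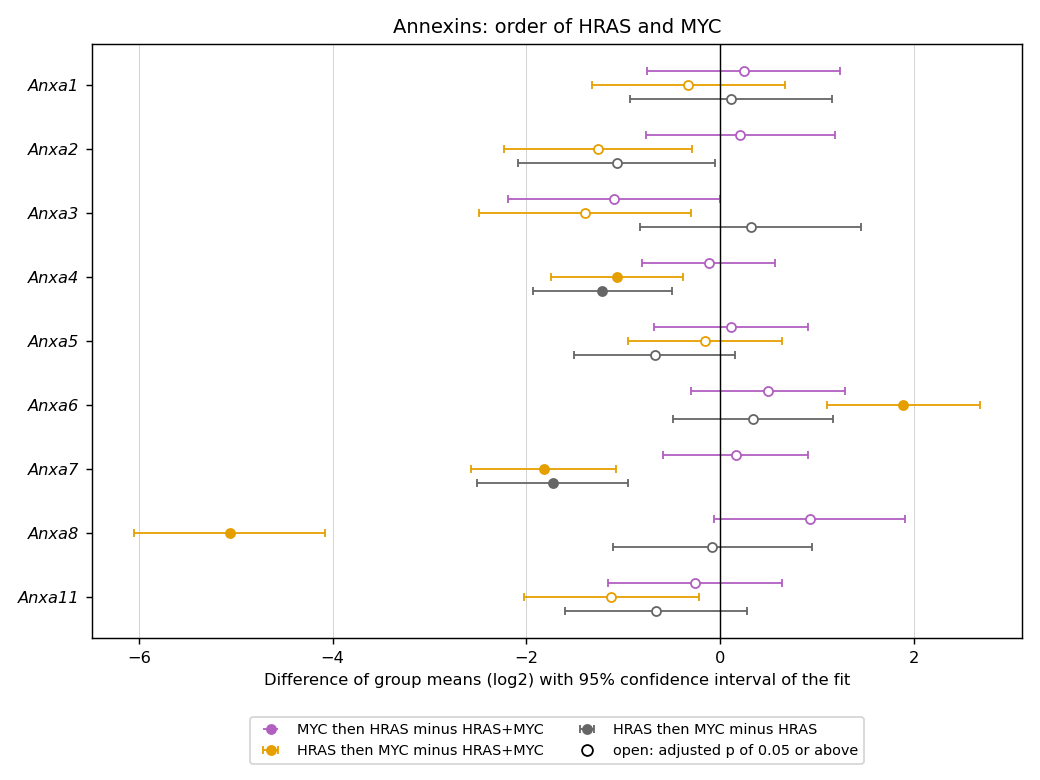
Differences of group means (log2) with 95% confidence intervals of the limma fit for the 9 annexins in 3 comparisons of the consecutive groups, namely MYC then HRAS and HRAS then MYC each against HRAS+MYC, and HRAS then MYC against HRAS; open points did not pass at an adjusted p under 0.05. HRAS then MYC lies far below HRAS+MYC for Anxa8, at -5.06, and above it for Anxa6, at 1.89, while no difference between MYC then HRAS and HRAS+MYC is filled.

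Ordered by group mean, Anxa1 ran MYC then HRAS, HRAS+MYC, HRAS+Bmi1, HRAS then MYC and HRAS, each overlapping the next, then after a gap MYC+Bmi1, MYC and MYC+Ezh2, again overlapping. Anxa5 had the same break, with HRAS+Bmi1 and HRAS at the top and the arrays of the 5 HRAS groups overlapping from one neighbour to the next. Anxa3 also had a single break, below HRAS+Bmi1, with HRAS+MYC at the top. Anxa2 and Anxa7 had breaks within the HRAS groups as well. For Anxa2 HRAS+Bmi1 and HRAS then MYC formed the lower part, and for Anxa7 HRAS then MYC stood alone at the bottom. Anxa4 and Anxa11 had the lowest means of the HRAS groups in HRAS then MYC and in HRAS+Bmi1, but there single arrays of HRAS+MYC (Anxa4) and HRAS (Anxa11) reached into the HRAS+Bmi1 range. In Anxa8 the only break lay between HRAS+MYC at 9.80 and HRAS at 4.81. In Anxa6 the 7 groups below HRAS+Bmi1 each overlapped the next, down to MYC then HRAS at 9.84 and HRAS+MYC at 9.34.

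Genes whose products work with annexins were read from lists of partners. Of 7 direct partners 6 were higher in HRAS than in MYC cells and none lower, and 5 were higher in HRAS+MYC than in MYC, beside 15.4% and 15.8% of all genes higher. S100a10, the partner of Anxa2, averaged 10.36 in MYC, 12.61 in HRAS and 12.84 in HRAS+MYC cells, a difference of 2.24 ± 0.263 (adjusted p = 1.3e-07) and 2.48 ± 0.242 (adjusted p = 3.8e-09) from MYC. S100a11, the partner of Anxa1, averaged 7.25, 12.34 and 12.39, differences of 5.10 ± 0.378 and 5.14 ± 0.347. S100a6, which binds Anxa11 among others, differed by 6.73 ± 0.206 and 6.53 ± 0.189, and Ahnak, a giant scaffold that binds the complex of Anxa2 and S100a10, by 3.76 ± 0.255 and 3.40 ± 0.235. The median difference of the list in HRAS against MYC was 2.93. Between HRAS+MYC and HRAS none was higher and 1 was lower, beside 11.7% and 13% of all genes. The lower gene was Sri, the sorcin that binds Anxa7, at -1.15 ± 0.227 (adjusted p = 0.00038). With Bmi1 on both sides 2 of 7 were higher, S100a11 and S100a6, beside 7.92% of all genes, and S100a10 did not pass (1.11, adjusted p = 0.061).

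Of 13 membrane repair and caveolar genes, all measured, 12 were higher in HRAS than in MYC cells and 11 in HRAS+MYC than in MYC, with none lower, beside 15.4% and 15.8% of all genes higher. With Bmi1 on both sides 7 of 13 were higher, beside 7.92% of all genes. In HRAS then MYC cells 6 of 13 were lower than in HRAS and 6 of 13 lower than in HRAS+MYC, beside 6.21% and 5.17% of all genes. Myof, a ferlin of membrane fusion and repair, differed by 5.81 ± 0.423 and 5.72 ± 0.389. Cav1, the caveolar coat protein, differed by 2.72 ± 0.528 and 3.47 ± 0.485, and Cavin1, its partner, by 2.61 ± 0.292 and 2.97 ± 0.268. Between HRAS+MYC and HRAS only Smpd1, the acid sphingomyelinase, passed, at -0.96 ± 0.135 (adjusted p = 5.2e-06). Over all genes 11.7% were higher and 13% lower there. The median difference of the list from MYC was 1.24 in HRAS and 1.04 in HRAS+MYC cells.

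The plasminogen system, which Anxa2 with S100a10 brings to the cell surface, had 5 of 6 listed genes measured. In HRAS against MYC 3 were higher and 2 did not pass, beside 15.4% of all genes higher. In HRAS+MYC against MYC 3 were again higher and 2 did not pass, beside 15.8%. Plau, the urokinase, Plaur, its receptor, and Plat, the tissue activator, were higher than in MYC by 6.72 ± 0.318, 3.56 ± 0.322 and 3.48 ± 0.473 in HRAS cells and by 4.98 ± 0.292, 4.51 ± 0.295 and 1.64 ± 0.434 in HRAS+MYC cells. HRAS+MYC and HRAS differed in all 5 measured genes, 2 higher and 3 lower, beside 11.7% and 13% of all genes. Plau differed by -1.75 ± 0.308 and Plaur by 0.95 ± 0.311. Anxa2 did not pass in that comparison.

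A list of Anxa1 receptors, eicosanoid enzymes and glucocorticoid genes had 5 of 9 genes measured, and no formyl peptide receptor was among them. In HRAS against MYC 1 was higher and 4 did not pass, beside 15.4% of all genes higher. In HRAS+MYC 1 was higher, 1 lower and 3 did not pass against MYC, beside 15.8% higher and 18.4% lower. Against HRAS the counts were the same, beside 11.7% and 13%. Ptgs2, the inducible cyclooxygenase, was higher than in MYC by 3.86 ± 0.362 in HRAS and by 7.14 ± 0.333 in HRAS+MYC cells, and its step from HRAS to HRAS+MYC was 3.28 ± 0.350 (adjusted p = 9.6e-08). Tsc22d3, a glucocorticoid-induced gene as Anxa1 is, was lower in HRAS+MYC than in MYC by a difference of -0.88 ± 0.244 (adjusted p = 0.0055). Nr3c1, the glucocorticoid receptor, was lower in HRAS+MYC than in HRAS by a difference of -0.80 ± 0.240 (adjusted p = 0.014).

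**Figure D4:**
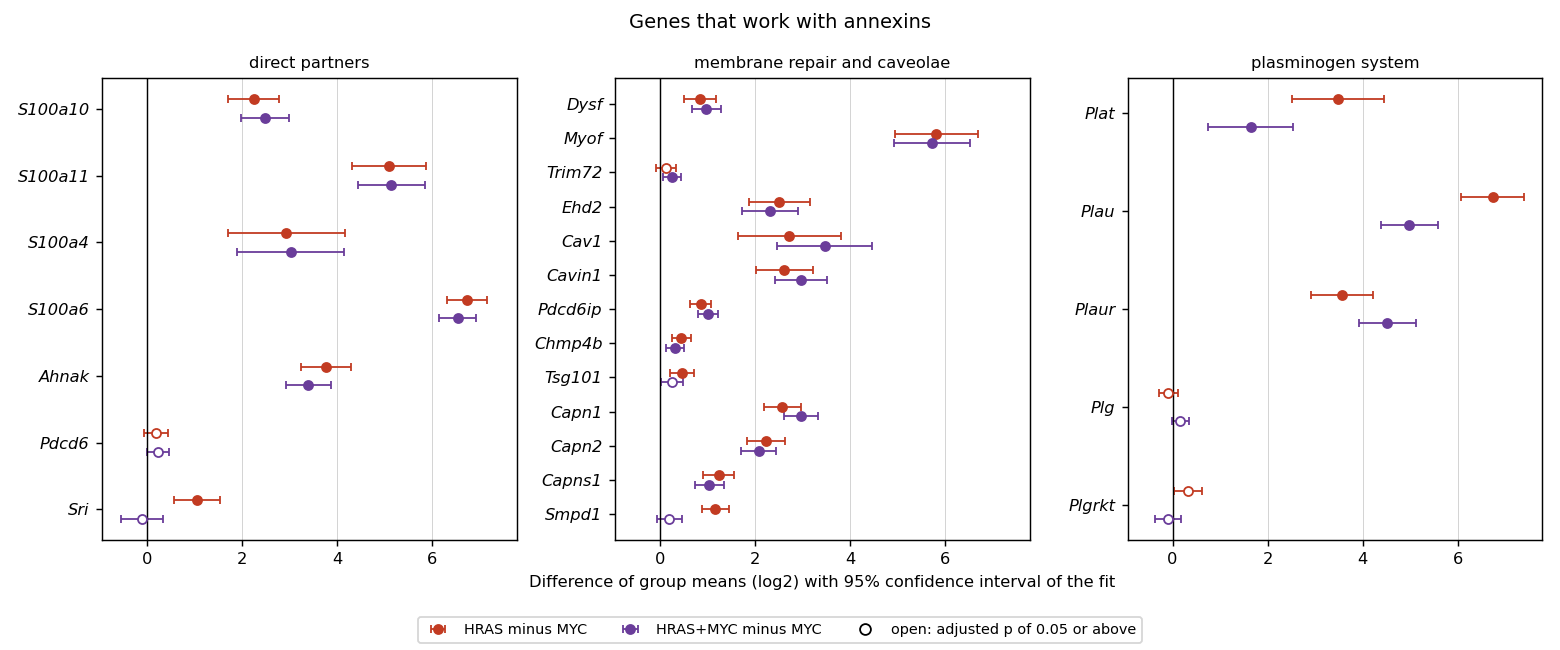
Differences of group means from MYC (log2) with 95% confidence intervals of the limma fit for direct partners of annexins, membrane repair and caveolar genes and the plasminogen system, in HRAS and in HRAS+MYC cells; open points did not pass at an adjusted p under 0.05. Filled points lie to the right of 0 in both groups, the longest steps being those of Plau, S100a6, Myof and S100a11.

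Markers of other cell types were read beside the annexins. Microglial and macrophage markers, 8 in all, summed to between 7.55 and 7.99 (log2) over all arrays. Their mean log2 value on single arrays was only 4.47 to 4.89, under the dim level. By group, 1 to 3 of the 8 had a mean above that level. A sum rises with the number of genes in it, even where they are dim. Such sums therefore do not by themselves show expression and are not compared between lists. Of the 8 markers only Itgam passed between HRAS and MYC, at -0.30. Fibroblast and meningeal markers summed to 7.93 to 8.29 in MYC, 8.84 to 10.54 in HRAS, 8.21 to 9.01 in HRAS+MYC and 11.79 to 11.88 in HRAS then MYC cells, where Col3a1 averaged 11.73. Of these 5 markers 2, Col3a1 and Dcn, were higher in HRAS than in MYC, beside 15.4% of all genes. In HRAS then MYC 3 were higher than in HRAS, beside 6.3% of all genes. The sum was highest in the HRAS then MYC cells, in which Anxa4 and Anxa7 were lower, and its part in the annexin differences was not tested. Endothelial and pericyte markers summed to between 7.63 and 8.76 over all arrays, and by group 2 to 5 of the 7 had a mean above the dim level. Of these 7 markers 2, Tek and Rgs5, were higher in HRAS than in MYC by 0.38 and 0.85, beside 15.4% of all genes. At least 6 of 8 neural stem and progenitor markers had a mean above the dim level in every group. Of these 8, 2 were higher and 4 lower in HRAS than in MYC, beside 15.4% and 18% of all genes. In HRAS+MYC 1 was higher and 5 lower than in MYC, beside 15.8% and 18.4% of all genes.

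Of 7 choroid plexus and epithelial markers 3 were higher and 1 lower in HRAS+MYC than in HRAS cells, beside 11.7% and 13% of all genes. Their median difference was 0.15, against 0.05 over all genes. The lower marker and the remaining higher one, besides the Epcam and Cdh1 described here, were among Aqp1, Kl and Otx2. Epcam, an adhesion protein of epithelia, averaged 9.04 in HRAS+MYC, 8.06 in MYC then HRAS, 5.66 in HRAS then MYC, 5.51 in HRAS and 5.53 in MYC cells. Cdh1, the epithelial cadherin, averaged 7.62, 6.14, 5.36, 5.54 and 5.33 in the same order. Both passed between HRAS+MYC and HRAS, at 3.53 ± 0.346 and 2.08 ± 0.238, while Ttr and Folr1 of the choroid plexus did not, at 0.15 and -0.02. The 7 markers summed to 9.06 to 10.52 in HRAS+MYC, 8.01 to 10.21 in HRAS and 7.89 to 9.48 in MYC cells. Whether a share of epithelial-like cells or a level per cell moved with Anxa8 was not tested, and in cultures measured whole the number of cells and the RNA per cell cannot be told apart.

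For each member the 3 most alike genes were found among 16400 candidates, by the root mean square (RMS) difference over the 32 arrays after each gene was centred on its mean. The annexins themselves were left out of the candidates, so no member could be matched to another annexin. Also left out were X- and Y-linked genes, olfactory receptors, small RNAs, genes of small ribosomal subunit proteins and unnamed gene models. Nearest to Anxa8 were Nos3 at 0.62, Cdx2 at 0.76 and Krt8 at 0.79, that is, the endothelial nitric oxide synthase, an intestinal and trophoblast homeobox factor and a simple keratin. Nearest to Anxa6 were Tead2 at 0.40, Ssbp2 at 0.42 and Zfp358 at 0.44. Anxa1 was nearest to S100a6 at 0.96, Pla2g7 at 1.17 and Tm4sf1 at 1.23, and Anxa2 to S100a11 at 0.71, then Tes at 0.76 and Epha2 at 0.78. For Anxa3 they were Epha2 at 0.85, Lmna at 0.87 and Niban1 at 0.88, and for Anxa5 Cav2 at 0.63, Casp8 at 0.65 and Mlkl at 0.66. Niban2 came first for both Anxa4, at 0.42, and Anxa7, at 0.37. Next came Plscr1 and Rin1 for Anxa4, at 0.45 and 0.50, and Tnfrsf12a and Capn1 for Anxa7, at 0.46 and 0.48. Capn1, at 0.53, also came first for Anxa11, before Avpi1 at 0.54 and Furin at 0.56. These distances describe the 32 arrays, which share their normalization and their groups. They were not scaled to the spread of the annexin, whose SD over the 32 arrays ran from 0.88 for Anxa6 to 3.82 for Anxa1. They therefore do not rank the matches of one member against those of another.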

How the data were processed

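The 32 cultures were each hybridised to a Mouse Gene 1.0 ST array. The deposited values are log2 expression values, made by the authors, per the submitters' processing notes, with RMA and version 1.0 of Affymetrix Expression Console. The log2 scale was read from the values. RMA gives all arrays a common distribution, so an overall shift of RNA would not show, and it compresses weak signals. For the build and annotation behind the files, the sources used here name none.

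The platform annotation gave a single symbol for 21789 of 35557 probe sets, which were used, several for 1621 and none listed for 12147. For 999 genes with several probe sets the one with the highest mean was taken, which left 19938 genes. Titles set each array's group, 8 in all. Array medians lay between 5.59 and 5.79, and no arrays were identical.

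Tests used limma 3.58.1 in R 4.3.3 (lmFit, eBayes, 2-sided) in 1 model of 8 group means over all arrays, with 13 pairwise comparisons and 1 interaction, Benjamini-Hochberg adjustment over all genes, and 24 residual degrees of freedom, so the spread in a group of 2 is taken from all groups. The number of arrays limits the precision, and depth has no equivalent here. The script was tested on simulated data.

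The named genes were all 9 annexins and the 3 most alike non-annexin genes of each. From each partner list up to 3 members with the largest change among those that passed were named, with S100a10 and S100a11. The members, lists and comparisons were chosen with earlier results of these data known. Alternatives were other samples in the fit, moderation, probe set rule, centring, dim filter, replicate block and left-out arrays.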

Additional observations from a re-analysis of the deposited data

Results flagged for a closer look

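Of 36 sets of values, 1 per annexin and group of 4 to 10 arrays, 2 held an array far from the others by Dixon's test, and chance alone gives about 1 in 20. Anxa1 in HRAS replicate 5 was low at 11.53, where the nearest HRAS array was at 11.97 and the highest at 12.06. Anxa6 in HRAS+MYC replicate 1 was low at 7.86, where the nearest was at 9.26 and the highest at 9.82. The step from MYC to HRAS differed between cultures with and without added Bmi1 for Anxa4, by -1.78 (adjusted p = 0.034 for the interaction in limma), and this call was lost in 6 of 16 fits that left out 1 array.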

How the results depend on the processing

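Of the members, 7 kept their class under all 25 alternatives, and Anxa1 and Anxa8 kept it under 24, both becoming graded where only the groups of a comparison were fitted. Among 1980 alternative values of single members, 58 changed sign, none of them a difference that passed in either fit. With only the compared groups in the fit, the count of annexins that passed was 5 for HRAS+MYC versus HRAS, 8 for HRAS+MYC versus HRAS+Bmi1, 0 for HRAS then MYC versus HRAS, 7 for HRAS then MYC versus HRAS+MYC and 0 for the interaction. The counts over all genes were then 533 for HRAS+Bmi1 versus HRAS, 1 each for MYC+Ezh2 and MYC+Bmi1 versus MYC, 2367 for MYC then HRAS versus MYC, 983 for HRAS then MYC versus HRAS and 135 for the interaction. Without MYC replicates 4 and 5, the counts over all genes were 202 for MYC+Ezh2, 245 for MYC+Bmi1 and 745 for the interaction, where 2 annexins passed. The causes of these changes were not tested.

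With the replicate number as a replicate block, the count for MYC+Ezh2 versus MYC fell to 9 genes, Anxa2 lost its call in HRAS+MYC versus HRAS+Bmi1 (adjusted p = 0.14, limma) and Anxa4 in HRAS then MYC versus HRAS+MYC (adjusted p = 0.083, limma), and no other annexin changed its call. The main fit did not treat the numbers as pairs. After group means were removed, correlations of same-numbered arrays ran from -0.30 to 0.34, the highest in MYC+Ezh2 versus MYC. This neither shows nor excludes pairing, and in a group of 2 arrays the deviations mirror each other, so the check cannot decide there. Median centring moved the median over all genes by over 0.1 in several comparisons, most in HRAS+MYC versus HRAS+Bmi1, from 0.06 to 0.22, where Anxa7 then passed (adjusted p = 0.024, limma).

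With 1 array left out at a time, the annexin counts ran from 0 to 2 for HRAS+Bmi1 versus HRAS, 2 to 5 for HRAS+MYC versus HRAS+Bmi1, 0 to 2 for HRAS then MYC versus HRAS, 2 to 5 for HRAS then MYC versus HRAS+MYC, 1 to 2 for the opposite orders and 0 to 4 for the interaction. The counts over all genes ran from 1175 to 2468 for HRAS+Bmi1 versus MYC+Bmi1, 199 to 1801 for HRAS+Bmi1 versus HRAS, 1317 to 3380 for HRAS+MYC versus HRAS+Bmi1, 4 to 233 for MYC+Ezh2 and 9 to 234 for MYC+Bmi1 versus MYC, 1900 to 4286 for MYC then HRAS versus MYC, 544 to 2667 for HRAS then MYC versus HRAS, 15 to 43 for MYC then HRAS and 605 to 2444 for HRAS then MYC versus HRAS+MYC, 195 to 578 for the opposite orders and 98 to 1099 for the interaction. A group of 2 with 1 array left out is assumed to vary like the others. Of the other calls, Anxa2 in HRAS+MYC versus HRAS+Bmi1 was lost in 8 of 9 such fits and Anxa4 in HRAS then MYC versus HRAS+MYC in 5 of 9.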
